A study of Mus musculus with 9 samples.

Results

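Inflammasomes are protein complexes that form in the cytosol of macrophages when a sensor meets a sign of infection or damage. The sensor recruits the adaptor encoded by Pycard, which gathers caspase-1, and caspase-1 cleaves the precursors of the cytokines interleukin-1β and interleukin-18. Caspase-1 also cleaves gasdermin D, whose released part makes pores in the plasma membrane and drives the lytic death called pyroptosis. In macrophages, bacterial lipopolysaccharide (LPS) first raises the transcripts of several components through TLR4 and NF-kB, a step called priming, and a second signal then triggers assembly.

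The 10 genes described here are sensors, their adaptor and partner, inflammatory caspases and gasdermins, chosen by symbol from the 55335 genes of the deposited table. Among sensors and sensor partners these are Nlrp3, Mefv, Aim2, Nlrc4 and Nek7, and the others are the adaptor Pycard, the proteases Casp1 and Casp4, and the pore proteins Gsdmd and Gsdme. By symbol, 9 were found, and Gsdme was found by its gene ID, since the table lists it under its older symbol Dfna5. Each of the 10 reached at least 1 FPKM in at least 3 libraries and was among the 11721 genes tested. FPKM, fragments scaled by transcript length and by mapped fragments, is a level relative to all other transcripts of the library.

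The study cultured mouse peritoneal macrophages for 1 h and then stimulated them for 4 h, and its title places them in a question about alcohol, macrophage polarization and TRPV1. LPS+CPZ cells received 1 µg/mL LPS with 100 µM CPZ, LPS+EtOH cells 1 µg/mL LPS with 5% ethanol, and LPS cells 1 µg/mL LPS alone. The labels do not expand CPZ, all 3 groups carry LPS, and no group without LPS was analysed here. Each group had 3 strand-specific RNA libraries, each a pool of 3 RNA samples, and since the labels do not say that the pools came from separate animals, p-values measure the spread between pools. The labels give no strain, sex or age.

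Total FPKM was 302126 to 363356 per library. The depth was estimated at 27.05 to 39.35 M fragments (M, 10 to the power 6). For this, the commonest product of FPKM and length, over genes with 1 annotated transcript, was taken as 1 fragment. At such depths FPKM near 1 rests on few fragments for short transcripts. Genes that reached 1 FPKM numbered 10135 to 10625 in LPS+CPZ libraries, 8024 to 8366 in LPS+EtOH libraries and 11096 to 11266 in LPS libraries. Over the 11721 genes the log2 changes had a median of -0.82 for LPS+EtOH against LPS, -0.33 for LPS+CPZ against LPS and 0.55 for LPS+CPZ against LPS+EtOH, whereas scaling by median ratios moved these medians to -0.08, -0.08 and 0.08. Directions below are those of the deposited FPKM, and for the 10 genes the turns under another scaling stand beside them.

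The cells were labelled peritoneal macrophages, and the general macrophage markers Adgre1 (88.5, 89.0 and 141 FPKM on average in LPS+CPZ, LPS+EtOH and LPS libraries) and Cd68 (405, 363 and 55.5 FPKM) were abundant. Of the markers of resident macrophages, Mertk (0.21, 0.02 and 0.18 FPKM) and Gata6 (0.31, 0.03 and 0.32 FPKM) were near 0 on average in the same order of groups, while Prg4 (22.1, 1.10 and 82.3 FPKM) and Timd4 (0.977, 0.162 and 7.82 FPKM) were measured in LPS libraries. Summed over 9 genes, large peritoneal macrophage markers reached 392 to 634 FPKM in LPS+CPZ, 86.5 to 100.0 FPKM in LPS+EtOH and 615 to 981 FPKM in LPS libraries, most of it Saa3. The other 8 genes summed to 21.3 to 36.2 FPKM in LPS+CPZ, 4.21 to 6.49 FPKM in LPS+EtOH and 109 to 139 FPKM in LPS libraries. In the list, 6 of the 7 tested were lower in LPS+CPZ than in LPS (median log2 change -2.16) and 7 of 7 in LPS+EtOH. Of all tested genes 48.4 and 64.6% were lower in these comparisons. Markers of other cells moved with the groups: 13 neutrophil genes summed to 7613 to 8399 FPKM in LPS+CPZ, 47198 to 52005 FPKM in LPS+EtOH and 4526 to 6313 FPKM in LPS libraries, carried by S100a8 and S100a9. The other 11 summed to 1919 to 2242 FPKM in LPS+CPZ, 7466 to 8080 FPKM in LPS+EtOH and 932 to 1407 FPKM in LPS libraries. Against LPS, 12 of the 13 were higher in LPS+EtOH (19.0% of all tested genes), without Mmp9 (55.6 FPKM in LPS+EtOH and 56.5 FPKM in LPS). In LPS+CPZ against LPS 5 of the 13 were higher, 3 lower and 5 did not pass (20.7% of all tested genes higher and 48.4% lower). Ly6g was highest in LPS+CPZ (274, 156 and 16.9 FPKM in LPS+CPZ, LPS+EtOH and LPS). The LPS libraries differed among themselves for some of the 13, as for Ngp at 4.62, 5.56 and 131 FPKM in LPS libraries 1, 2 and 3. Summed B cell markers (10 genes) were 1233 to 1452 FPKM in LPS+CPZ, 150 to 205 FPKM in LPS+EtOH and 1572 to 2253 FPKM in LPS libraries, most of it Ighm. The other 9 B cell genes summed to 173 to 224 FPKM in LPS+CPZ, 41.9 to 64.2 FPKM in LPS+EtOH and 571 to 843 FPKM in LPS libraries. Of the 10, 9 were lower in LPS+CPZ than in LPS (median log2 change -1.84), where 48.4% of all tested genes were lower. T and NK cell markers (12 genes) were 14.9 to 26.1, 1.38 to 2.60 and 72.6 to 101 FPKM in that order. Red blood cell genes (6 genes) made up 11.5 to 29.6% of all FPKM in LPS libraries and at most 0.222% in the other groups. In bulk RNA, fewer cells of a type and less RNA per cell cannot be told apart, and the part of these cells in the changes below was not tested.

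**Figure D1:**
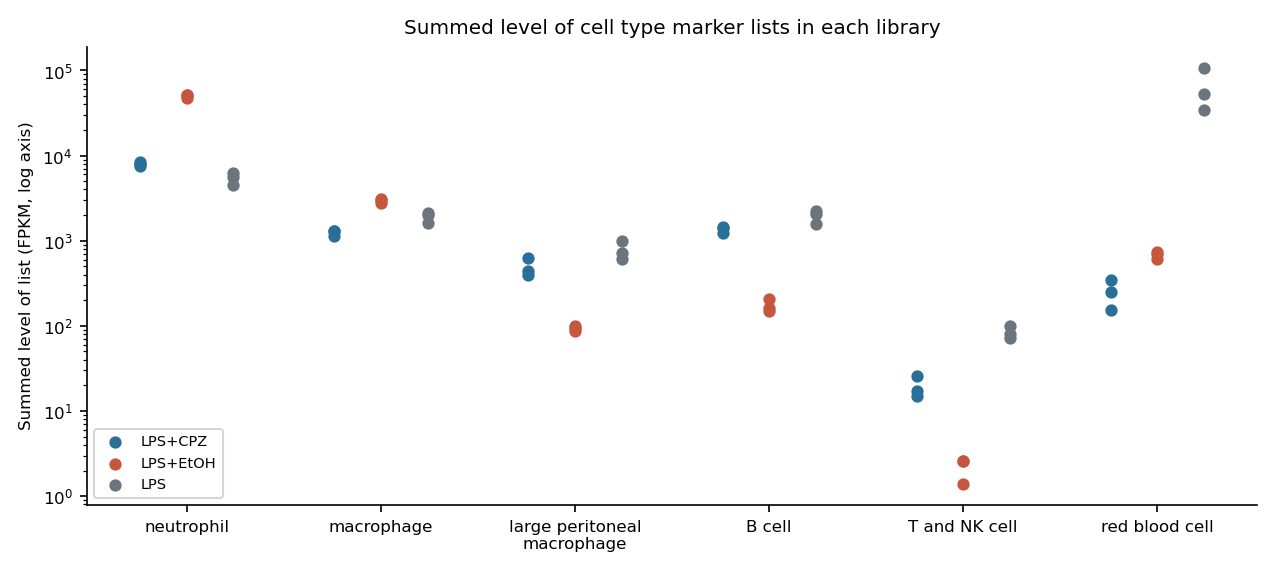
Summed FPKM (log axis) of the marker genes of each cell type, 1 point per library, for LPS+CPZ, LPS+EtOH and LPS. Neutrophil markers stand at 47198 to 52005 FPKM in LPS+EtOH libraries and at 8399 FPKM or less in all others, while B cell, T and NK cell and large peritoneal macrophage markers are lowest in LPS+EtOH.

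The question of the first comparison is what ethanol did to LPS-stimulated cells, and of the second what CPZ did. With ethanol Mefv and Casp4 were higher and Nlrc4 and Nek7 lower under each scaling. Casp1 was also higher, but its call was lost with the globin genes left out. The small rise of Nlrp3 and the falls of Gsdmd and Gsdme turned under some scalings. With CPZ each member that passed the test against LPS was lower. In LPS+EtOH against LPS 4 of the 10 members were higher and 5 lower at a limma adjusted p below 0.05, where 19.0% of all tested genes were higher, 64.6% lower and 83.6% changed either way. In LPS+CPZ against LPS none was higher and 7 were lower (limma, adjusted p below 0.05), where 20.7% of all tested genes were higher, 48.4% lower and 69.2% changed either way. Setting LPS+CPZ against LPS+EtOH, 2 members were higher and 5 lower, where 61.4% of all tested genes were higher, 15.2% lower and 76.6% changed either way. The libraries of LPS+EtOH lay wholly above those of LPS for 4 members and below for 5, against 19.5 and 65.3% of tested genes (84.8% either way). Those of LPS+CPZ lay wholly above those of LPS for 0 members and below for 7, against 22.3 and 50.7% (72.9% either way), and above those of LPS+EtOH for 2 and below for 5, against 62.9 and 16.0% (79.0% either way). With most tested genes called, these counts say little about the members as a set, and the results are in each gene's direction and size. The median log2 change of the members was -0.22 for LPS+EtOH against LPS, -0.61 for LPS+CPZ against LPS and -0.38 for LPS+CPZ against LPS+EtOH. Under median-ratio scaling the counts were 6 higher and 2 lower in LPS+EtOH against LPS (37.8 and 42.1% of tested genes, 80.0% either way), 0 higher and 5 lower in LPS+CPZ against LPS (27.5 and 34.1%, 61.6% either way), and 0 higher and 7 lower in LPS+CPZ against LPS+EtOH (35.6 and 31.4%, 67.0% either way).

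**Figure D2:**
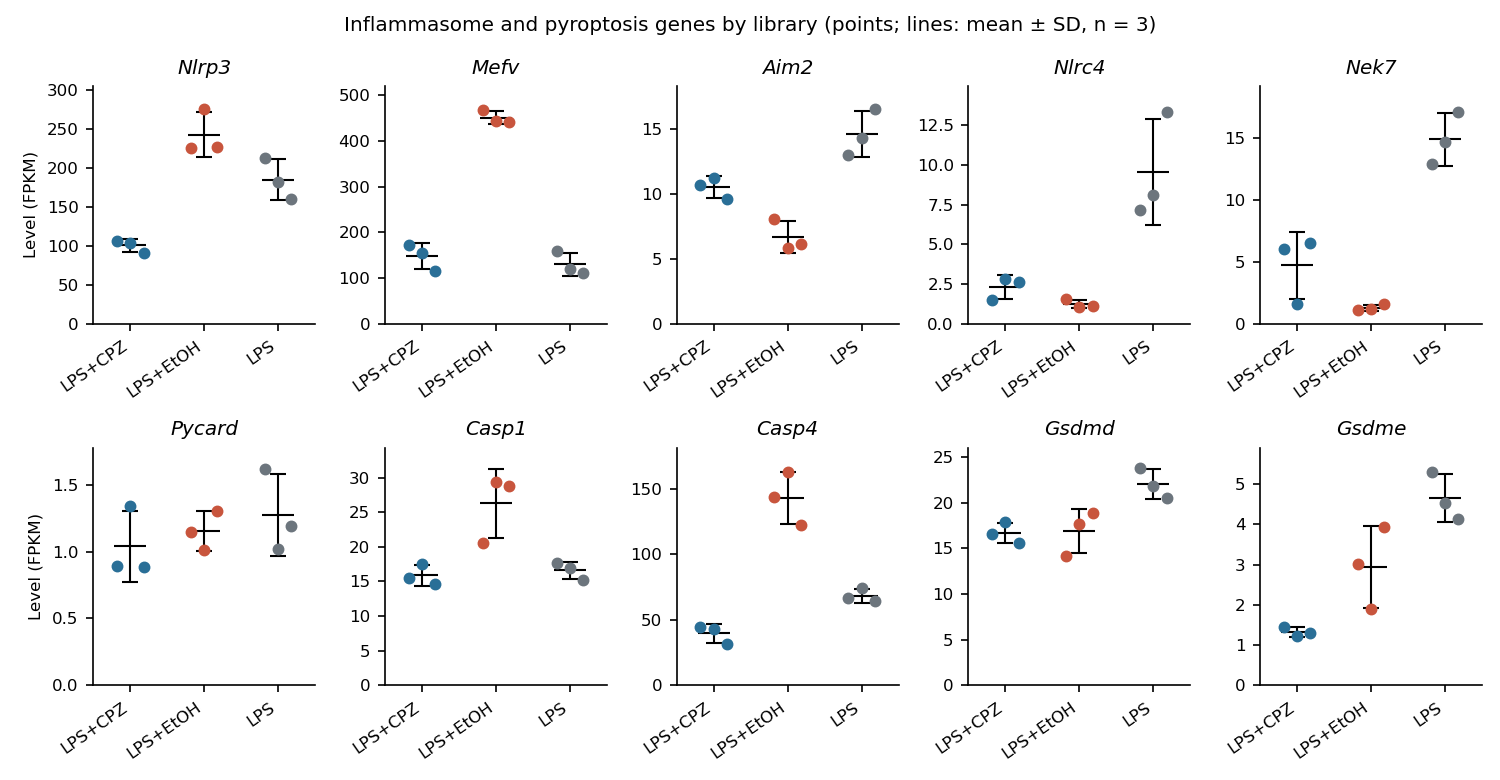
Level of each of the 10 genes in FPKM, 1 point per library, with the mean and SD of 3 libraries, for LPS+CPZ, LPS+EtOH and LPS. Each panel has its own axis from 0, and Mefv in LPS+EtOH libraries (441 to 467 FPKM) is the highest value shown.

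Among the sensors, Mefv and Nlrp3 were the most abundant members. Mefv encodes pyrin, a sensor of the inactivation of RhoA GTPases by bacterial toxins. Its level was 171, 155 and 116 FPKM in the 3 LPS+CPZ libraries, 467, 444 and 441 FPKM in the LPS+EtOH libraries and 159, 120 and 111 FPKM in the LPS libraries. All LPS+EtOH libraries lay above all others, and the LPS+CPZ and LPS libraries overlapped. The rise in LPS+EtOH against LPS was 3.47-fold in mean FPKM, a log2 change of 1.80 ± 0.18 (SE; limma adjusted p = 3.36e-06), and it held in direction and call under every scaling tried. LPS+CPZ against LPS did not pass, with a log2 change of 0.18 (95% interval -0.21 to 0.57; limma adjusted p = 0.388), and the change was -0.19 with the globin genes left out. The difference between LPS+CPZ and LPS+EtOH was -1.63 ± 0.18 (limma adjusted p = 1.76e-05).

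Nlrp3 encodes the sensor of potassium loss and membrane disturbance, and its transcript is a known target of priming. LPS+CPZ libraries held 107, 104 and 91.1 FPKM of Nlrp3, LPS+EtOH libraries 225, 275 and 227 FPKM and LPS libraries 212, 182 and 160 FPKM. The 3 groups did not overlap, with LPS+EtOH highest and LPS+CPZ lowest. With CPZ, Nlrp3 fell to 0.545 of its mean FPKM in LPS libraries (log2 change -0.86 ± 0.14, limma adjusted p = 0.000362) and to 0.415 of that in LPS+EtOH libraries (-1.26 ± 0.14, adjusted p = 2.44e-05), under every scaling tried. The rise in LPS+EtOH against LPS was small, 1.31-fold (0.40 ± 0.14, limma adjusted p = 0.0252), and depended on the scaling: the log2 change was 1.49 under median-ratio scaling, -0.03 under quantile scaling and -0.02 with the globin genes left out. It did not pass without LPS library 2 (0.39), LPS library 3 (0.30) or LPS+EtOH library 2 (0.30).

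Nek7 encodes a kinase that binds NLRP3 and is needed for its assembly in mouse macrophages. Its level was 6.02, 1.61 and 6.47 FPKM in LPS+CPZ libraries, 1.11, 1.18 and 1.57 FPKM in LPS+EtOH libraries and 12.9, 14.6 and 17.1 FPKM in LPS libraries. The groups did not overlap, although LPS+CPZ library 2 stood close to the LPS+EtOH libraries. Nek7 fell in LPS+EtOH against LPS by 2.79 ± 0.33 on the log2 scale (limma adjusted p = 1.45e-05) and in LPS+CPZ against LPS by 1.61 ± 0.33 (adjusted p = 0.00141), under every scaling tried. In LPS+EtOH libraries the Nlrp3 level was 144 to 233 times that of Nek7, against 14.1 to 64.3 times in LPS+CPZ and 9.36 to 16.5 times in LPS libraries. LPS+CPZ libraries were above LPS+EtOH libraries by 1.18 ± 0.33 (limma adjusted p = 0.00786), which did not pass under median-ratio (0.68) or quantile scaling (0.57).

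Nlrc4 encodes the partner through which the NAIP proteins signal the presence of flagellin and secretion-system parts of bacteria. LPS+CPZ libraries held 1.48, 2.85 and 2.62 FPKM of Nlrc4, LPS+EtOH libraries 1.57, 1.08 and 1.13 FPKM and LPS libraries 7.14, 8.09 and 13.3 FPKM. All LPS libraries were above all others, and the 2 other groups overlapped. Nlrc4 fell by 2.18 ± 0.23 in LPS+EtOH (limma adjusted p = 5.35e-06) and by 1.65 ± 0.23 in LPS+CPZ (adjusted p = 0.000102), each against LPS and under every scaling tried. LPS+CPZ against LPS+EtOH did not pass (0.53, 95% interval 0.03 to 1.04, limma adjusted p = 0.0523) and turned to -0.083 under quantile scaling. It passed with a pseudocount of 0.1 (0.80), as TPM (0.74), with the globin genes left out (0.74) and without LPS library 1, LPS library 3 or LPS+CPZ library 1 (0.73 without the last). The table also lists a pseudogene, CT033749.1, which overlaps Nlrc4 on the same strand in GENCODE M21 at up to 2.29 FPKM, so reads could be split between them.

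Aim2 encodes a sensor of double-stranded DNA in the cytosol. Its level was 10.7, 11.2 and 9.57 FPKM in LPS+CPZ libraries, 8.06, 5.86 and 6.13 FPKM in LPS+EtOH libraries and 13.0, 14.3 and 16.5 FPKM in LPS libraries, with no overlap between groups. Aim2 fell in LPS+EtOH by 1.03 ± 0.14 (limma adjusted p = 4.25e-05) and in LPS+CPZ by 0.44 ± 0.14 (adjusted p = 0.0169), each against LPS. These changes came to -0.03 and -0.14 under median-ratio scaling and neither passed there. The call for LPS+CPZ was also lost without LPS library 3 (-0.35) or LPS+CPZ library 3 (-0.38). LPS+CPZ was above LPS+EtOH by 0.59 ± 0.14 (limma adjusted p = 0.00295), and the sign turned under median-ratio scaling (-0.10).

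Pycard encodes ASC, the adaptor that links these sensors to caspase-1, and its level was the lowest of the 10 members on average in LPS+CPZ, LPS+EtOH and LPS libraries. It was listed at 0.889, 1.34 and 0.884 FPKM in LPS+CPZ libraries, 1.15, 1.01 and 1.31 FPKM in LPS+EtOH libraries and 1.62, 1.02 and 1.19 FPKM in LPS libraries. The 3 groups overlapped. No comparison passed as deposited, with log2 changes of -0.07 in LPS+EtOH against LPS (95% interval -0.37 to 0.22, limma adjusted p = 0.614) and -0.16 in LPS+CPZ against LPS (-0.45 to 0.13, adjusted p = 0.304). Against LPS the sign of Pycard in LPS+EtOH turned under median-ratio scaling, where the gene was higher (0.53, limma adjusted p = 0.00218), and under quantile scaling (0.77). In LPS+CPZ against LPS it came to 0.0056 under median-ratio and 0.065 under quantile scaling and to -0.53, past the test, with the globin genes left out. LPS+CPZ was below LPS+EtOH by 0.09 as deposited without passing (limma adjusted p = 0.566), and by 0.52 under median-ratio scaling (adjusted p = 0.00324).

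Both caspases were higher with ethanol, and with CPZ Casp4 passed the test against LPS while Casp1 did not. Casp4 is the mouse gene long called caspase-11, whose protein binds LPS in the cytosol and cleaves gasdermin D without a canonical inflammasome. Its level was 44.7, 43.3 and 31.2 FPKM in LPS+CPZ libraries, 144, 163 and 123 FPKM in LPS+EtOH libraries and 66.5, 74.1 and 64.2 FPKM in LPS libraries. The groups did not overlap, in the same order as for Nlrp3. Casp4 rose 2.10-fold in LPS+EtOH against LPS (log2 change 1.05 ± 0.16, limma adjusted p = 0.000106) and fell to 0.582 in LPS+CPZ against LPS (-0.78 ± 0.16, adjusted p = 0.00145). LPS+CPZ libraries stood at 0.278 of the LPS+EtOH mean (-1.83 ± 0.16, limma adjusted p = 4.83e-06). Each of these 3 changes of Casp4 kept its direction and its call under every scaling tried.

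Casp1, the protease of the canonical pathway, was at 15.5, 17.5 and 14.6 FPKM in LPS+CPZ libraries, 20.6, 29.4 and 28.8 FPKM in LPS+EtOH libraries and 17.6, 16.9 and 15.2 FPKM in LPS libraries. The LPS+EtOH libraries lay above the others, which overlapped. Casp1 rose in LPS+EtOH against LPS by 0.62 ± 0.15 (1.58-fold, limma adjusted p = 0.00251), a call that was lost with the globin genes left out (0.22). No change of Casp1 passed in LPS+CPZ against LPS (-0.06, 95% interval -0.39 to 0.27, limma adjusted p = 0.728), and the sign turned under median-ratio (0.24) and quantile scaling (0.18), while with the globin genes left out Casp1 was lower (-0.43). LPS+CPZ libraries were below LPS+EtOH libraries by 0.68 ± 0.15 on the log2 scale (limma adjusted p = 0.00174), under every scaling tried.

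**Figure D3:**
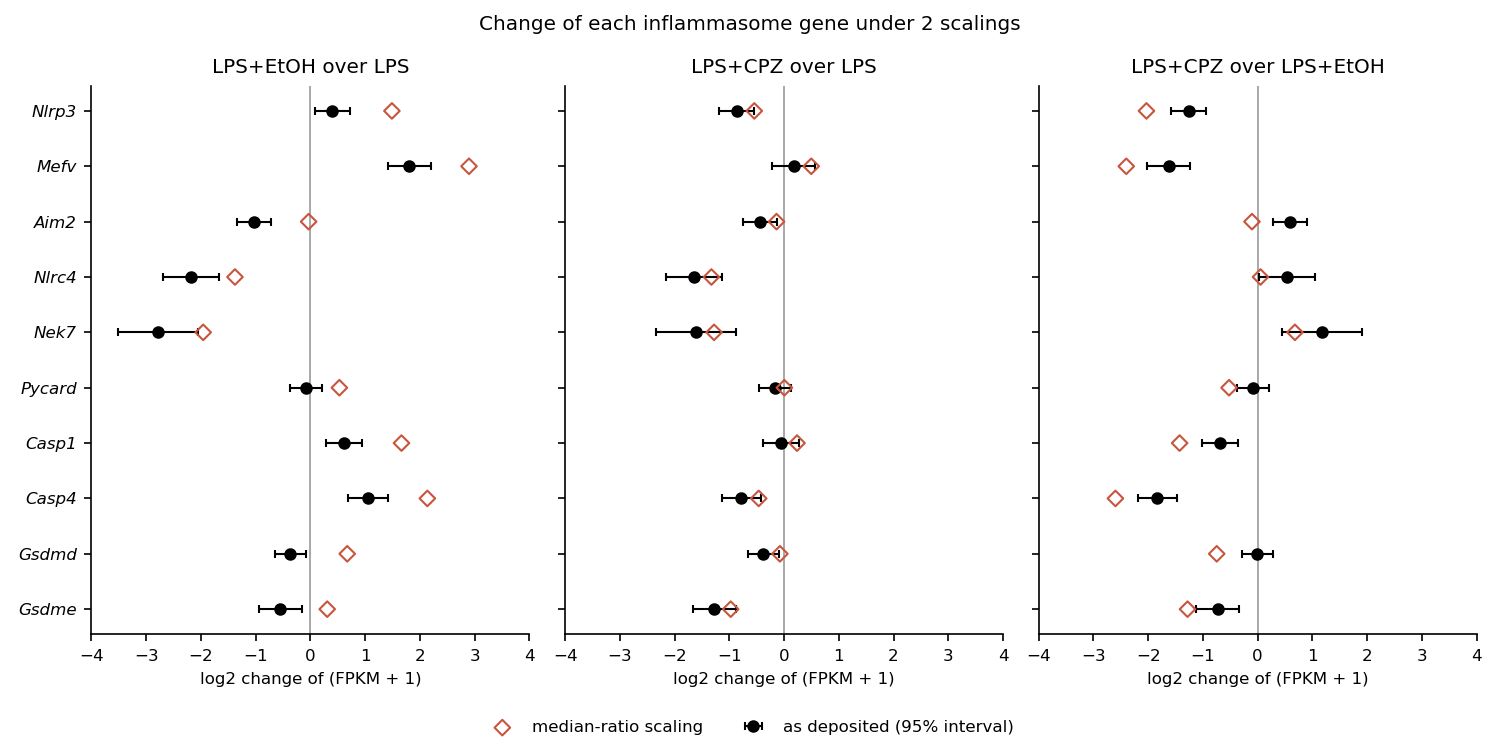
Log2 change of FPKM + 1 for each of the 10 genes in the 3 comparisons, as deposited with its 95% interval (black) and under median-ratio scaling (open diamonds). Mefv and Casp4 lie above 0 and Nlrc4 and Nek7 below 0 under both scalings in LPS+EtOH over LPS, while Gsdmd changes side (-0.37 and 0.67).

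Gsdmd, the gasdermin cut by caspase-1 and caspase-4, was at 16.6, 17.8 and 15.6 FPKM in LPS+CPZ libraries, 14.2, 17.6 and 18.8 FPKM in LPS+EtOH libraries and 23.8, 21.8 and 20.5 FPKM in LPS libraries. All LPS libraries were above the others, which overlapped. Gsdmd fell in LPS+EtOH by 0.37 ± 0.13 (limma adjusted p = 0.0186), but was higher by 0.67 under median-ratio scaling (adjusted p = 0.00149), and by 0.03 under quantile scaling without passing. In LPS+CPZ it fell by 0.38 ± 0.13 against LPS (limma adjusted p = 0.0206), which did not pass under median-ratio (-0.08) or quantile scaling (-0.22). Leaving out LPS library 1 ended both calls (-0.32 and -0.33), as did leaving out LPS+EtOH library 1 (-0.26) and LPS+CPZ library 3 (-0.34), each for its own group. LPS+CPZ and LPS+EtOH libraries differed by -0.01 (95% interval -0.29 to 0.27, limma adjusted p = 0.947) as deposited, by 0.038 as TPM, by 0.036 with the globin genes left out and by -0.75 under median-ratio scaling (adjusted p = 0.00112).

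Gsdme encodes a gasdermin that caspase-3 cuts, which turns apoptosis towards lysis. It was at 1.46, 1.22 and 1.30 FPKM in LPS+CPZ libraries, 3.002, 1.89 and 3.93 FPKM in LPS+EtOH libraries and 5.31, 4.52 and 4.12 FPKM in LPS libraries, with no overlap. Gsdme fell in LPS+CPZ by 1.28 ± 0.18 against LPS (limma adjusted p = 0.000109) and by 0.73 ± 0.18 against LPS+EtOH (adjusted p = 0.00357), under every scaling tried. The fall in LPS+EtOH against LPS was 0.55 ± 0.18 (limma adjusted p = 0.0145), with the opposite sign under median-ratio (0.31) and quantile scaling (0.39), neither of which passed. It was -0.47 and did not pass without LPS library 1, and -0.34 without LPS+EtOH library 2. Mpp6 overlaps Gsdme on the other strand at up to 6.67 FPKM, and whether the counting used strand is not given in the sources used here.

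Within a library, the ratio of 2 members does not change when all genes are scaled by the same factor, as in TPM or median-ratio scaling. Quantile scaling can change it. Of 8 ratios, each compared between the 3 pairs of groups in 24 exact permutation tests of 3 against 3 libraries (two-sided), none could go below p = 0.1, and the lowest adjusted p was 0.12. The ratio of Mefv to Nlrp3 was 1.61, 1.49 and 1.27 in LPS+CPZ libraries, 2.07, 1.61 and 1.94 in LPS+EtOH libraries and 0.750, 0.661 and 0.692 in LPS libraries. It exceeded 1 in every library with CPZ or ethanol and in no library with LPS alone. Casp1 over Gsdmd was 0.934, 0.983 and 0.937 in LPS+CPZ libraries, 1.45, 1.67 and 1.53 in LPS+EtOH libraries and 0.741, 0.775 and 0.744 in LPS libraries, with no overlap. Casp4 over Gsdmd was 2.70, 2.43 and 2.01 in LPS+CPZ, 10.1, 9.24 and 6.53 in LPS+EtOH libraries and 2.79, 3.40 and 3.14 in LPS libraries. Casp4 over Casp1 was 2.89, 2.47 and 2.14 in LPS+CPZ, 6.99, 5.54 and 4.26 in LPS+EtOH libraries and 3.77, 4.39 and 4.22 in LPS libraries, and here LPS+EtOH and LPS overlapped (exact permutation p = 0.2). Gsdmd over Gsdme was 11.4, 14.6 and 12.0 in LPS+CPZ libraries, against 4.73, 9.32 and 4.79 in LPS+EtOH libraries and 4.49, 4.82 and 4.97 in LPS libraries.

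**Figure D4:**
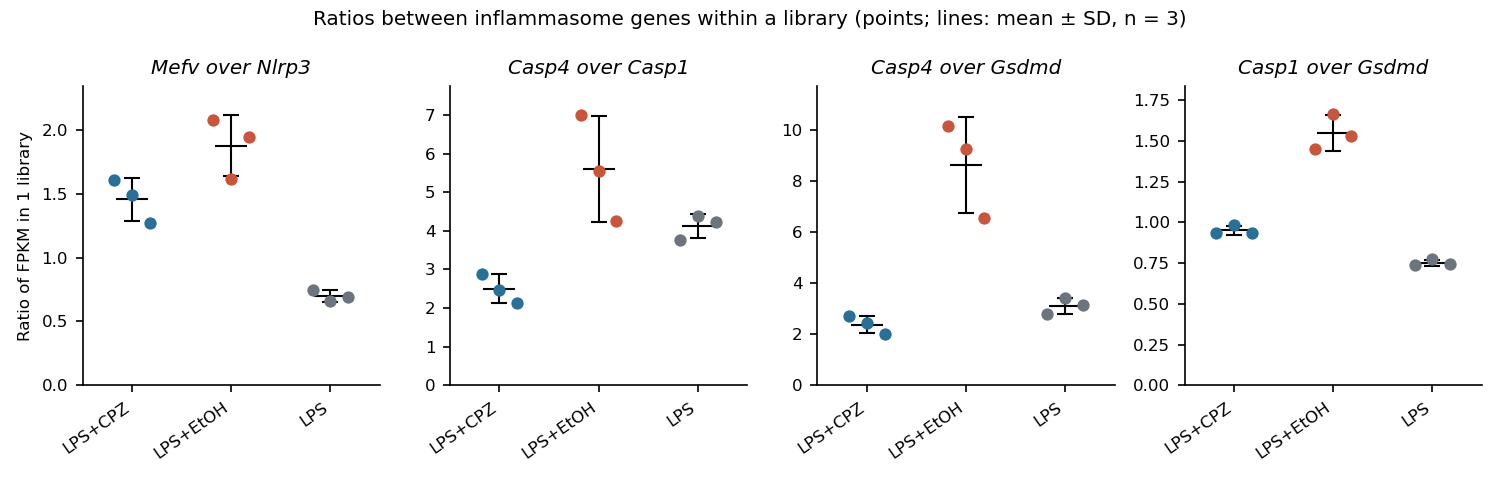
Ratio of the FPKM of 2 genes in the same library, 1 point per library with the mean and SD of 3, for LPS+CPZ, LPS+EtOH and LPS. Mefv over Nlrp3 is 1.27 to 2.07 in libraries with CPZ or ethanol and 0.661 to 0.750 with LPS alone, and Casp4 over Gsdmd is 6.53 to 10.1 in LPS+EtOH and at most 3.40 elsewhere.

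The 10 members summed to 289 to 375 FPKM in LPS+CPZ libraries, 852 to 940 FPKM in LPS+EtOH libraries and 422 to 519 FPKM in LPS libraries. Nlrp3, Mefv and Casp4 together made up 84.4%, 93.7% and 81.9% of that sum on average in LPS+CPZ, LPS+EtOH and LPS libraries. Mefv alone was 43.1%, 50.6% and 27.7% of the sum and Nlrp3 29.7%, 27.1% and 39.5% in the same order. Among all tested genes Mefv stood at the 97.1 to 98.1 percentile in LPS+CPZ, 99.0 to 99.2 in LPS+EtOH and 97.1 to 98.0 in LPS libraries. Pycard stood between the 7.82 and 38.3 percentile over the 9 libraries.

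Nlrp3 and Casp4 were each other's nearest member by pattern, with a root mean square distance of 0.32 between their centred log2 values over the 9 libraries. For scale, 281 tested genes were nearer to Nlrp3 than Casp4 was, and 118 nearer to Casp4 than Nlrp3 was. Gsdmd and Pycard formed the other mutual pair (0.18), with 126 tested genes nearer to Gsdmd and 146 nearer to Pycard. Pycard was near 1 FPKM, where changes are understated on this scale. Over all 9670 genes ranked, the nearest to Nlrp3 were Pim1 (0.12; 188 ± 23.4, 469 ± 10.3 and 388 ± 51.9 FPKM in LPS+CPZ, LPS+EtOH and LPS, SD, n = 3), Rps6ka4 (0.12) and Nfkb2 (0.12). Nearest to Casp4 were Ccdc88b (0.16), Ifitm5 (0.16) and Mthfsl (0.16), to Casp1 Bak1 (0.12), Tmbim4 (0.13) and Mvp (0.13), and to Gsdmd Gmeb1 (0.10), Rfx1 (0.10) and Slc4a2 (0.10).

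The promoters of Nlrp3 and Casp4 are shown because these genes had the same order of groups with no overlap. That of Casp1, which lies near Casp4 on chromosome 9, is shown beside them. Casp1 had the same order of means, but its LPS+CPZ and LPS libraries overlapped and its change with CPZ against LPS did not pass. These promoters come from RefSeq (GRCm38.p6), all on the plus strand. They run from 250 bases before to 50 bases after the annotated start, 5′ to 3′, with matches to the NF-kB consensus in capitals. Such windows were found for 9 of the 10 members (11 windows), without Gsdmd.
Casp4, chr9:5308599-5308898: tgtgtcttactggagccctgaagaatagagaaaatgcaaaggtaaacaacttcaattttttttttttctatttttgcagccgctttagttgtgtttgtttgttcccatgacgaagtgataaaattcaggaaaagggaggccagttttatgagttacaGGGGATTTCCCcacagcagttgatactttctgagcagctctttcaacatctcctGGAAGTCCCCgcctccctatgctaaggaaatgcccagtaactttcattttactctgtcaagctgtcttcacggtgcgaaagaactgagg
Nlrp3 (second of 2 annotated starts), chr11:59541319-59541618: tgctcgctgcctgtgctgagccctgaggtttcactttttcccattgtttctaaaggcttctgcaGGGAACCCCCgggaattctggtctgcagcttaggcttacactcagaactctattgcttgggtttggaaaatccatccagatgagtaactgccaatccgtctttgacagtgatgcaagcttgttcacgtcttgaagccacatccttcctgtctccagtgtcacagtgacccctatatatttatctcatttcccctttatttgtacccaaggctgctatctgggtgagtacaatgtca
Casp1, chr9:5298267-5298566: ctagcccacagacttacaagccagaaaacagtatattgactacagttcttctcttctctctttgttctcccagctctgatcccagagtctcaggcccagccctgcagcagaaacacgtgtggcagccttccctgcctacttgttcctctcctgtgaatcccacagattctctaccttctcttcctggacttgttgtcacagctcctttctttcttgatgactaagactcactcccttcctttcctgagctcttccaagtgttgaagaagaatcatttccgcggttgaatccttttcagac
The capitals in Casp4 are 2 overlapping matches, GGGGATTTCC at -93 and GGGATTTCCC at -92 from the start, the latter on both strands. A further match in Casp4 is on the minus strand only, and its plus-strand letters at -39 are GGAAGTCCCC. Those in Nlrp3 are GGGAACCCCC at -186, a match on both strands. On both strands, matches were found in windows of 2 of the 9 members (Casp4 and Nlrp3). By window these were 3 of 11, against 8.46% of all 32851 windows of the table. The 3 are the printed Nlrp3 window and 2 Casp4 windows that overlap almost wholly. The printed Nlrp3 start is second only in the order of listing, and it lies upstream of the other. The window of that other annotated start of Nlrp3 held no match. The interferon-stimulated response element core, GAAA and GAAA with any 2 bases between them (3.44% of all windows), and the AP-1 site TGANTCA (7.81%) were found in no window of the 9 members. A match says only that the letters are there.

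Other genes of the pathway came from a list of 54, of which 52 were in the table and 43 were tested. In LPS+EtOH against LPS 10 of the 43 were higher and 20 lower (limma; 19.0 and 64.6% of all tested genes), and in LPS+CPZ against LPS 10 were higher and 26 lower (20.7 and 48.4%). The median log2 changes of the 43 were -0.41 and -0.76, against -0.82 and -0.33 over all tested genes. Median-ratio scaling gave 21 higher and 10 lower in LPS+EtOH against LPS (37.8 and 42.1% of all tested genes), and 13 higher and 22 lower in LPS+CPZ against LPS (27.5 and 34.1%). The counts by role that follow have these same shares of all genes as their background.

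Il1b, the precursor of interleukin-1β, was at 463, 509 and 447 FPKM in LPS+CPZ libraries, 1623, 2610 and 2314 FPKM in LPS+EtOH libraries and 4351, 3073 and 2719 FPKM in LPS libraries. The LPS+CPZ libraries were the lowest with no overlap, a log2 change of -2.81 ± 0.22 against LPS (limma adjusted p = 2.52e-06) and -2.18 ± 0.22 against LPS+EtOH (adjusted p = 1.16e-05). In LPS+EtOH against LPS the fall was 0.63 ± 0.22 (limma adjusted p = 0.0215), with the opposite sign under median-ratio scaling (0.47) and no call without LPS library 1 or LPS+EtOH library 1 (-0.43 each). Il18 was at 1.24, 1.32 and 1.02 FPKM in LPS+CPZ, 1.63, 1.77 and 2.93 FPKM in LPS+EtOH and 9.55, 9.53 and 9.17 FPKM in LPS libraries, and fell in both against LPS (-2.25 ± 0.15 and -1.77 ± 0.15). Il18bp, the decoy that binds interleukin-18, rose instead: it was at 31.9, 25.3 and 29.2 FPKM in LPS+CPZ, 14.5, 19.3 and 15.6 FPKM in LPS+EtOH and 6.43, 6.20 and 4.80 FPKM in LPS libraries (2.13 ± 0.15 and 1.36 ± 0.15 against LPS, limma adjusted p = 1.06e-06 and 7.55e-06).

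Of 13 genes of priming, ion flux and sensor activation, 3 were higher and 6 lower in each comparison with LPS (19.0 and 64.6% of all tested genes with ethanol, 20.7 and 48.4% with CPZ). The balance turned under median-ratio scaling, with 7 higher and 5 lower in LPS+EtOH and 5 higher and 4 lower in LPS+CPZ. P2rx7, the ATP-gated channel whose opening triggers NLRP3, was at 7.80, 7.85 and 9.26 FPKM in LPS+CPZ libraries, 0.105, 0.123 and 0.0562 FPKM in LPS+EtOH libraries and 1.58, 1.20 and 1.69 FPKM in LPS libraries. It rose in LPS+CPZ (1.90 ± 0.12, limma adjusted p = 4.53e-07) and fell in LPS+EtOH (-1.18 ± 0.12, adjusted p = 3.39e-06) against LPS. Tlr4, the LPS receptor, was at 3.27, 14.6 and 11.4 FPKM in LPS+CPZ, 32.7, 34.0 and 30.8 FPKM in LPS+EtOH and 2.38, 7.69 and 1.57 FPKM in LPS libraries. Tlr4 rose in LPS+EtOH against LPS (2.99 ± 0.50, limma adjusted p = 0.000201), while LPS+CPZ against LPS did not pass (1.15, 95% interval 0.05 to 2.26) except without LPS library 2 (1.67) or LPS+CPZ library 1 (1.72) and under median-ratio or quantile scaling. Kcnk6, a potassium channel, averaged 0.825, 0.129 and 3.25 FPKM in LPS+CPZ, LPS+EtOH and LPS libraries and fell in both against LPS (-1.22 ± 0.11 and -1.91 ± 0.11).

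Some interferon-inducible GTPases act in mouse upstream of caspase-11 by exposing bacterial LPS, a role not meant here for each of the 7 tested. Of these, 6 of 7 fell in LPS+CPZ against LPS and 2 of 7 in LPS+EtOH, with none higher as deposited. In these comparisons 48.4 and 64.6% of all tested genes were lower. Under median-ratio scaling 5 of 7 were lower in LPS+CPZ, while in LPS+EtOH 1 was lower and 2 were higher, Gbp2 (1.21) and Irgm1 (1.86). Gbp5 was at 6.82, 12.3 and 5.19 FPKM in LPS+CPZ, 13.2, 45.7 and 27.5 FPKM in LPS+EtOH and 76.3, 65.6 and 42.1 FPKM in LPS libraries, a log2 change of -2.81 ± 0.41 in LPS+CPZ (limma adjusted p = 0.000152). Its change in LPS+EtOH (-1.18 ± 0.41, limma adjusted p = 0.0203) came from overlapping libraries and was lost under median-ratio scaling (-0.12) and without LPS library 1, LPS library 2 or LPS+EtOH library 1 (-0.73 without the last). Gbp3 averaged 9.03, 6.34 and 31.4 FPKM in LPS+CPZ, LPS+EtOH and LPS libraries and fell in both against LPS. Gbp genes are close copies of each other, as are Naip genes, so reads could be shared within each family. Of 5 other sensors tested, 1 was higher and 2 lower in LPS+EtOH against LPS (19.0 and 64.6% of all tested genes). In LPS+CPZ 2 were higher and 3 lower (20.7 and 48.4%). Under median-ratio scaling the counts were 2 and 0, and 2 and 3. Nlrp12 rose in LPS+EtOH (1.08 ± 0.13) and LPS+CPZ (0.61 ± 0.13) against LPS, at levels near the floor. It averaged 1.07, 1.90 and 0.353 FPKM in LPS+CPZ, LPS+EtOH and LPS libraries. No LPS library reached 1 FPKM of Nlrp12 (0.270 to 0.433 FPKM), so it was tested only because of its level in the other groups. Naip6 fell in both (-0.90 ± 0.13 and -0.87 ± 0.13), the first of these not passing under median-ratio scaling (-0.18) and turning to 0.057 under quantile scaling. Naip2, averaging 47.4, 11.5 and 15.4 FPKM in LPS+CPZ, LPS+EtOH and LPS libraries, rose in LPS+CPZ against LPS (1.56 ± 0.21, and 1.84 under median-ratio scaling). Zbp1 (-1.97 ± 0.32) and Naip5 (-0.63 ± 0.13) fell there.

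Inhibitors and adaptors were lower in 4 of 6 tested cases in LPS+EtOH and 5 of 6 in LPS+CPZ against LPS, where 64.6 and 48.4% of all tested genes were lower. Under median-ratio scaling 3 were higher and 2 lower in LPS+EtOH, Cflar (0.66) and Pstpip1 (0.69) being called higher there, and 1 was higher and 4 lower in LPS+CPZ. Serpinb9 and Serpinb1a encode inhibitors of proteases. Serpinb9 was at 5.08, 7.37 and 5.98 FPKM in LPS+CPZ, 0.841, 0.617 and 0.479 FPKM in LPS+EtOH and 15.3, 18.3 and 20.8 FPKM in LPS libraries (-1.42 ± 0.16 and -3.53 ± 0.16 against LPS). Serpinb1a averaged 2.72, 1.47 and 13.0 FPKM in the same order of groups (-1.94 ± 0.18 and -2.51 ± 0.18). Card9, an adaptor of fungal signals, was the 1 tested gene of this list that was higher, by 0.48 ± 0.17 in LPS+CPZ and 0.52 ± 0.17 in LPS+EtOH (limma adjusted p = 0.026 and 0.0145), and both calls were lost without LPS library 3 (0.29 and 0.33), that of LPS+CPZ also without LPS+CPZ library 1 (0.49) or 3 (0.39).

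Among 7 other effectors and membrane repair genes tested, 3 were higher and 3 lower in each comparison with LPS (19.0 and 64.6% of all tested genes with ethanol, 20.7 and 48.4% with CPZ). Under median-ratio scaling 5 were higher and 1 lower in LPS+EtOH, Casp8 turning to a call as higher (0.39), and 4 were higher and 3 lower in LPS+CPZ. Mlkl, which makes the pores of necroptosis, averaged 2.44, 0.67 and 4.49 FPKM in LPS+CPZ, LPS+EtOH and LPS libraries and fell in both against LPS (-0.67 ± 0.14 and -1.72 ± 0.14). Chmp4b, part of the machinery that patches gasdermin pores, was at 145, 137 and 138 FPKM in LPS+CPZ, 288, 313 and 272 FPKM in LPS+EtOH and 135, 148 and 107 FPKM in LPS libraries. It rose in LPS+EtOH against LPS (1.17 ± 0.14, limma adjusted p = 1.55e-05), and LPS+CPZ against LPS did not pass (0.12, 95% interval -0.19 to 0.43, adjusted p = 0.471), with the opposite sign once the globin genes were left out (-0.26) and a call as higher under median-ratio scaling (0.44, adjusted p = 0.0389).

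**Figure D5:**
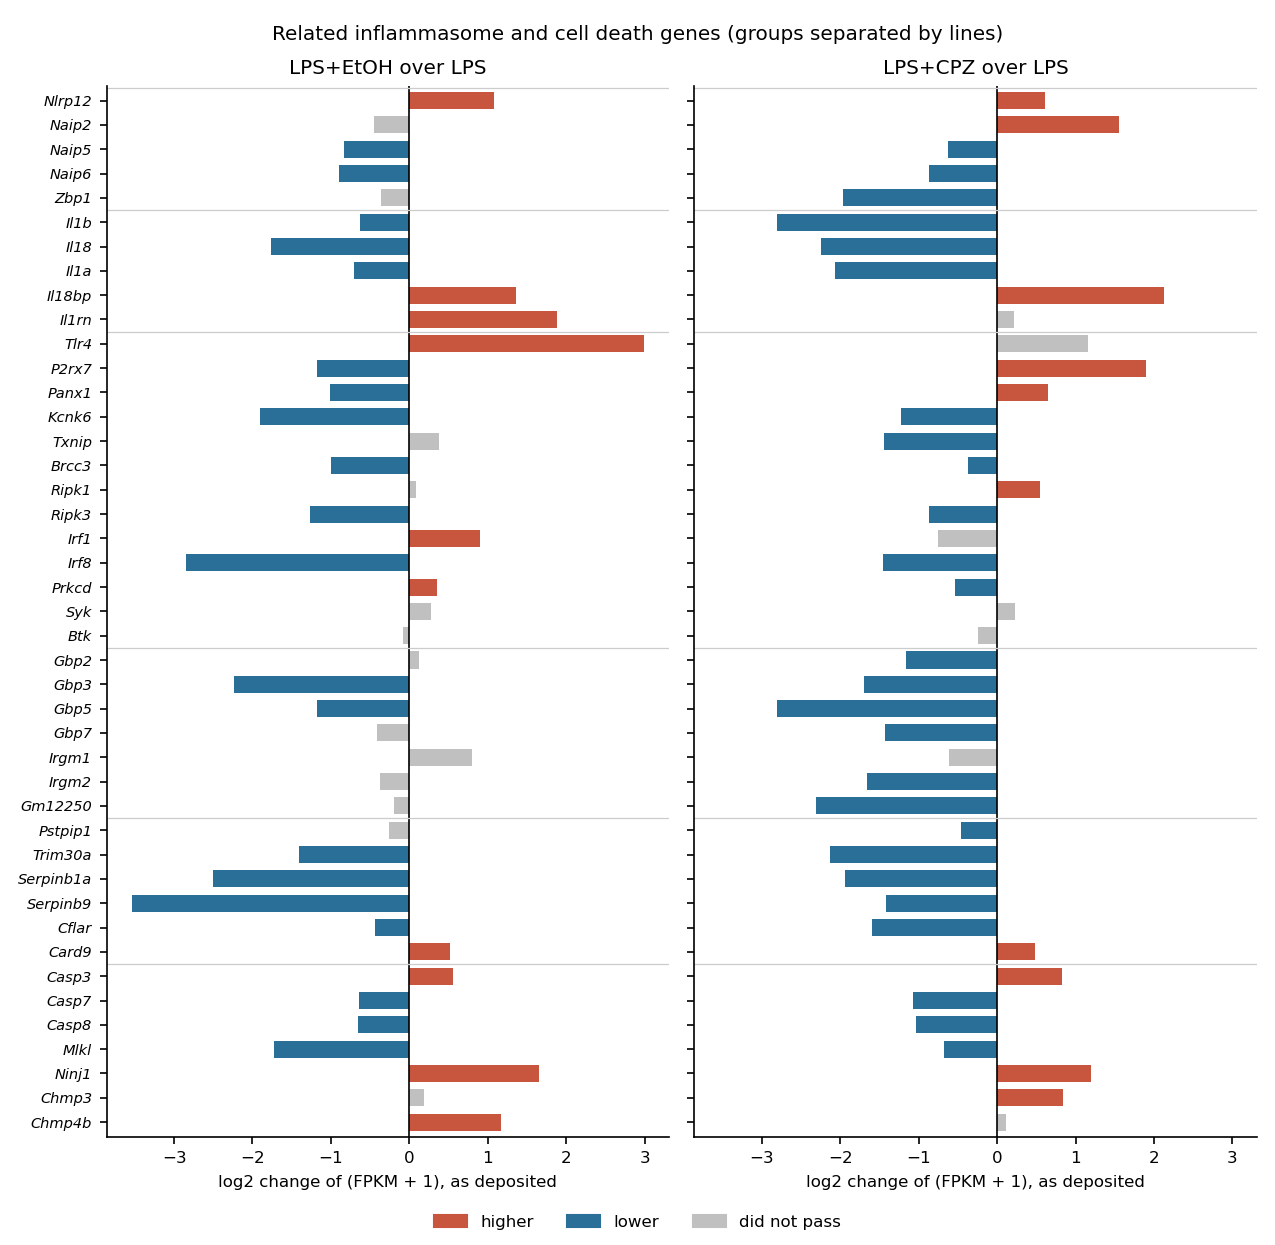
Log2 change of FPKM + 1, as deposited, of the 43 tested genes of the pathway list in LPS+EtOH and LPS+CPZ over LPS, with bars coloured by whether the gene was higher, lower or did not pass (limma adjusted p below 0.05). P2rx7 points in opposite directions (-1.18 and 1.90), and the 7 tested GTPases lie below 0 in LPS+CPZ over LPS, 6 of them past the test.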

How the data were processed

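RNA of 9 libraries (3 per group) was measured by strand-specific sequencing. The authors deposited FPKM per gene; FastQC 0.11.2, STAR and StringTie are named, without their settings, in the submitters' processing notes. Those notes name hg38 while the gene IDs are of mouse, so no coordinates of the table are given. From the deposited FPKM, log2(FPKM + 1) was computed and tested with limma 3.58.1 in R 4.3.3 (group means over all 9 libraries, moderated with a trend, two-sided) for the 11721 genes at 1 FPKM or more in at least 3 libraries, and p-values were adjusted by Benjamini-Hochberg over all of them and called below 0.05. Fold changes on this scale understate those of low genes. Intervals are 95%. The fit was tried on simulated data with few genes changed and no shift in scaling, so that trial cannot judge the scaling of these data. Alternatives were a pseudocount of 0.1 or 5, other filters, TPM, median-ratio and quantile scaling, leaving out globin genes, no trend, 2 groups alone, a replicate block and leaving out each library. Every member was named. Of the pathway list, the 2 genes of smallest adjusted p per role were named, with any of the other direction, Il1b and Il18. Further genes of the list are named where they qualify a count or a direction. The members and lists were chosen with earlier results of these data known. Other tools were Python 3.11.15, numpy 2.4.6, pandas 2.3.3, scipy 1.17.1 and matplotlib 3.10.9.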

Additional observations from a re-analysis of the deposited data

How the results depend on the processing

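The number of members called ranged from 7 to 9 in LPS+EtOH against LPS, 5 to 9 in LPS+CPZ against LPS and 6 to 8 in LPS+CPZ against LPS+EtOH over all alternatives, and from 7 to 9, 5 to 7 and 7 to 8 on leaving out 1 library. The scaling decided most signs that turned, and the cause was not tested. In LPS+EtOH against LPS, log2 changes turned to -0.031 (quantile) and -0.024 (globin genes left out) for Nlrp3, 0.53 (median ratio) and 0.77 (quantile) for Pycard, 0.67 and 0.025 for Gsdmd, 0.31 and 0.39 for Gsdme, 0.47 (median ratio) for Il1b and 0.057 (quantile) for Naip6. In LPS+CPZ against LPS they turned to -0.19 for Mefv and -0.26 for Chmp4b (globin genes left out), and under median-ratio and quantile scaling to 0.0056 and 0.065 for Pycard and 0.24 and 0.18 for Casp1. In LPS+CPZ against LPS+EtOH they turned to -0.083 (quantile) for Nlrc4, -0.10 (median ratio) for Aim2, 0.038 (TPM) and 0.036 (globin genes left out) for Gsdmd, -0.42 (median ratio) and -0.60 (quantile) for Naip6, -0.15 (median ratio) for Gbp3 and -0.048 (quantile) for Serpinb1a. Leaving out 1 library gave -0.15 to 0.032 for Pycard in LPS+EtOH against LPS, -0.017 to 0.22 for Chmp4b in LPS+CPZ against LPS and, in LPS+CPZ against LPS+EtOH, -0.12 to 0.069 for Gsdmd, -0.040 to 0.078 for Naip6 and -0.13 to 0.048 for Card9. Same-numbered libraries of different groups deviated with correlations of -0.0065 to 0.260 (8 of 9 above 0), others with -0.204 to 0.127, and in 10 of 18 cases a library correlated best with its own number, which is a hint from the data; the labels give no pairing. Library 2 was the highest of each group for 6 of the 7 GTPases, noticed after seeing the values. With a replicate block the members called were 4 higher and 5 lower, 0 and 7, and 3 and 5, Nlrc4 being gained (0.53, limma adjusted p = 0.046). Under a filter of 5 FPKM the lowest members could not be tested. FPKM near 1, as for Pycard, rests on few fragments.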

Other observations

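By symbol, 29 further NLR, caspase and gasdermin genes were in the table and 5 of them were tested. In LPS+EtOH against LPS none of the 5 was higher and 4 were lower (limma, adjusted p below 0.05; 64.6% of all tested genes were lower), and in LPS+CPZ against LPS none was higher and 3 were lower (48.4%). Under median-ratio scaling these counts were 1 higher and 2 lower, and 0 higher and 2 lower. Ciita, the regulator of MHC class II genes, averaged 2.52 FPKM in LPS+CPZ, 0.397 FPKM in LPS+EtOH and 7.03 FPKM in LPS libraries. Casp9, the initiator of the mitochondrial route of apoptosis, averaged 2.61, 0.970 and 2.69 FPKM in the same order. Nlrc5, a regulator of MHC class I genes, averaged 22.8 ± 9.72, 39.6 ± 17.5 and 28.6 ± 6.56 FPKM (SD, n = 3 each) and passed in no comparison as deposited. Under median-ratio scaling Nlrc5 was higher in LPS+EtOH than in LPS (1.46) and lower in LPS+CPZ than in LPS+EtOH (-1.51).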
